A study of Arabidopsis thaliana with 6 samples.

Results

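The cold-regulated COR genes and the CBF transcription factors were examined in Arabidopsis seedlings as a set of 10 nuclear genes, taken by locus identifier from a table of 32744 genes. The set held 7 effector genes (COR15A, COR15B, COR47, ERD10, KIN1, KIN2 and COR78, also called RD29A) and the 3 factors CBF1, CBF2 and CBF3. RNA depleted of ribosomal RNA was sequenced from untreated seedlings grown on media to Boyes stage 1.04. Wild type gave 3 libraries, and 3 others carry the label of a knock-out of both AT3G21465 and AT4G15640; the series title speaks of mutants in mitochondrial proteins of unknown role. The labels name neither the wild-type accession nor the alleles, and they give no growth temperature, light regime or time of harvest.

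CBF proteins are AP2/ERF-type factors whose transcripts rise soon after Arabidopsis is moved to the cold. They bind a short element, the C-repeat or dehydration-responsive element, upstream of COR genes, whose hydrophilic products help membranes and proteins withstand freezing and loss of water. COR genes also respond to drought and abscisic acid, partly through a separate element, ABRE, bound by bZIP factors, and the circadian clock sets the hours at which CBF transcripts can accumulate. No cold treatment was part of the design, so the levels below are those of seedlings labelled untreated.

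Most of the effector genes lie beside a close relative, and the sequences of these neighbours are shown because the neighbours differed in what their transcripts did. COR15A (AT2G42540) and COR15B (AT2G42530) follow each other on the minus strand of chromosome 2, with 7 bases between their annotated transcripts. ERD10 (AT1G20450) and COR47 (AT1G20440) are separated by 1029 bases on chromosome 1, and KIN1 (AT5G15960) and KIN2 (AT5G15970) by 892 bases on chromosome 5. CBF1 (AT4G25490), CBF3 (AT4G25480) and CBF2 (AT4G25470) lie in that order on the minus strand of chromosome 4. The core of the C-repeat element, CCGAC, was searched on both strands in the 1000 bases before each start codon of the reference genome TAIR10.1. All 7 effector genes held it, and none of the 3 CBF genes did; 39.5% of 27443 genes with a window of this length hold at least 1 match. One match near the start codon, read on the gene's own strand, is given for each with the core in capitals; within each neighbouring pair the bases to its left are similar too.
COR15A: caatttcatggCCGACctgcttttttt
COR15B: caacttgatggCCGACctcttttttct
ERD10: atattcatccaCCGACcgaccgacgta
COR47: atattcatctaCCGACttcaagaaata
KIN1: ataaatagctaCCGACataaggcaaaa
KIN2: ataaaaagctaCCGACataaggcaaaa
COR78: aagatatactaCCGACatgagttccaa
These windows lie at chr2:17712217-17712243, chr2:17710123-17710149, chr1:7089370-7089396, chr1:7085917-7085943, chr5:5209803-5209829, chr5:5211770-5211796 and chr5:21240673-21240699, in the order listed. The cores begin 302, 265, 278, 268, 178, 185 and 245 bases before the start codon. For COR78 (AT5G52310) the second nearest match is shown, since it is the nearest one upstream of the annotated transcript; in the other 6 genes the match falls inside an exon of the long annotated 5′ leader. The 3 matches of ERD10 overlap each other, and the one farthest from the start codon is printed, as its left flank is the one like that of COR47. COR78 held 4 matches, COR15A 3, KIN1 and COR15B 2 each, and KIN2 and COR47 1 each. The other match of COR15B, 825 bases before its start codon, lies inside the annotated transcript of COR15A. For COR47 the whole window lies within the gene's own annotated leader, which spans 1209 bases. The core of ABRE, ACGTG, searched the same way, was present in the window of all 10 genes and of 54.0% of all genes; where 2 such cores overlap on opposite strands, as CACGTG, both strands match. A match is a stretch of letters and does not show that a factor was bound.

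KIN1 and KIN2 are so alike that their counting needs to be seen with their sequence. Their coding sequences have 201 bases each on the plus strand of chromosome 5 and are printed whole, with the bases that differ between them in capitals; 95.0% of positions are identical.
KIN1: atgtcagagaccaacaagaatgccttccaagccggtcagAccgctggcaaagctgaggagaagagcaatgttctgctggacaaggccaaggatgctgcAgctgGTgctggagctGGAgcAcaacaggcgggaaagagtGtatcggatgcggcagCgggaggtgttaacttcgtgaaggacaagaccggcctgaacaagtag
KIN2: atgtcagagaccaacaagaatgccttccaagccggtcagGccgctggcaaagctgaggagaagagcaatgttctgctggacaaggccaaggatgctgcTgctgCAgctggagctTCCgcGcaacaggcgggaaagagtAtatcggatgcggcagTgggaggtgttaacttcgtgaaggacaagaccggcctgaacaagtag
The longest stretch without a difference has 58 bases. A read that fits inside such a stretch can align to both genes, and the authors' counting credited it to each of them. CBF1 and CBF2 share up to 68 bases and CBF2 and CBF3 up to 57, whereas COR15A and COR15B share at most 31; COR47 and ERD10 share at most 32 in their coding sequences. Read length is not given in the sources used here, so the part of the counts held in common cannot be stated.

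Library totals ran from 53193772 to 78671470 counts. The targeted genes check the labels: AT3G21465 was lower in the knock-out libraries by label (log2 fold change -0.78, edgeR adjusted p = 8.95e-05), but AT4G15640 was not, at 12.0 ± 1.07 CPM in wild type and 13.4 ± 0.725 CPM in the others (SD, n = 3 each; edgeR adjusted p = 0.121). CPM is a gene's count scaled to a common library total with TMM factors. Every direction below rests on the labels, and the second group is written as the labelled-mutant libraries. Of 21805 genes tested with edgeR's quasi-likelihood test, 5742 (26.3%) were higher and 5679 (26.0%) lower in that group at an adjusted p under 0.05. In all, 52.4% of tested genes were called. The groups did not overlap for 61.8% of tested genes, 32.1% being higher and 29.8% lower in every labelled-mutant library. As for the tissue, the summed level of 5 leaf photosynthesis markers was 9073 to 10506 CPM in wild type and 4866 to 5551 CPM in the labelled-mutant libraries, and all 5 were called lower. RBCS1A gave the largest part of the sum, with means of 4732 and 2063 CPM. CAB2 overlapped between the groups (log2 fold change -0.36, edgeR adjusted p = 0.0422). The summed level of 7 root markers was 44.3 to 60.9 and 47.0 to 49.4 CPM, with 2 higher and 2 lower. The 5 seed storage and oil body markers summed to 0.512 to 5.01 CPM and 0.127 to 2.02 CPM, and neither of the 2 tested was called. The 4 floral markers summed to 1.55 to 1.76 CPM in wild type and 0.257 to 0.494 CPM in the labelled-mutant libraries; of 2 tested, SEP3 was lower (log2 fold change -3.32, edgeR adjusted p = 0.000102). SESA3, OLEO1, SESA1, AG and AP3 were at 0 in at least 1 library. In bulk seedlings, fewer cells of a type and less RNA per cell cannot be told apart, and the part of the lower leaf and floral marker levels in the results below was not tested.

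The 10 genes did not move as a block. All 10 were tested; 5 were higher (COR15A, KIN1, COR78, CBF2 and CBF3), 2 were lower (COR15B and COR47), and ERD10, KIN2 and CBF1 did not pass. Called were 7 of 10, beside 52.4% of all tested genes, and those 7 were also the genes whose groups did not overlap, beside 61.8%. The count by itself is therefore no result about these genes. Their median log2 fold change was 1.01, beside 0.01 over all tested genes. It was 0.00 over the 7 effectors and 1.71 over the 3 factors.

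**Figure D1:**
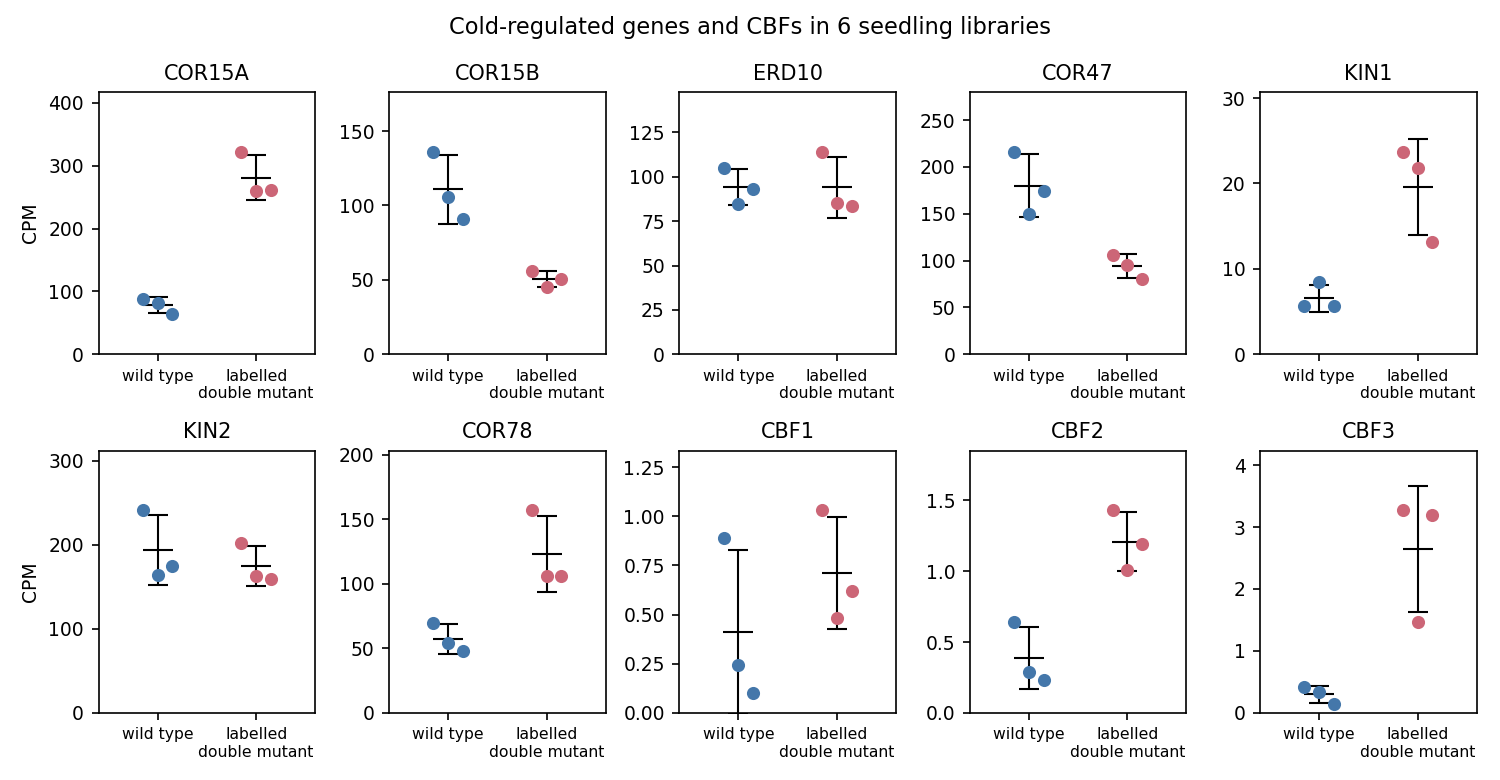
CPM of the 10 genes, on linear axes from 0 that differ between panels; each point is 1 library, and the bars are the mean and SD of 3 libraries per group. COR15A lies at 64.4 to 88.0 CPM in wild type and 259 to 322 CPM in the labelled-mutant libraries, COR15B goes the other way, and ERD10, KIN2 and CBF1 overlap between the groups.

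COR15A encodes a small chloroplast stromal protein that stabilises membranes during freezing. Its level was 88.0, 81.9 and 64.4 CPM in wild-type libraries 1 to 3, and 322, 259 and 262 CPM in labelled-mutant libraries 1 to 3. Every labelled-mutant library lay far above every wild-type one. The rise was 3.60-fold, or 1.85 ± 0.13 on the log2 scale (SE; edgeR adjusted p = 1.1e-05).

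COR15B, its neighbour, encodes a similar chloroplast protein; 83.1% of the aligned coding bases are the same. Its level was 136, 106 and 90.7 CPM in wild type and 56.1, 45.1 and 50.6 CPM in the labelled-mutant libraries. All of the latter were below all of the former, the reverse of COR15A. The level was 2.19-fold lower, with a log2 fold change of -1.13 and an SE of 0.14 (edgeR adjusted p = 0.000251). Because both genes are counted over the same exon length, 1584 bases, their levels can be set side by side in a library. COR15A had 0.646, 0.776 and 0.710 times the level of COR15B in the wild-type libraries and 5.74, 5.74 and 5.17 times in the labelled-mutant ones. The more abundant gene was thus COR15B in every wild-type library and COR15A in every labelled-mutant library.

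COR47 and ERD10 encode acidic dehydrins, intrinsically disordered proteins that protect other proteins and membranes during water loss. COR47 had 216, 150.2 and 174 CPM in wild type and 106, 95.7 and 80.3 CPM in the labelled-mutant libraries, with no overlap. The level was 1.92-fold lower, with a log2 fold change of -0.94 and an SE of 0.14 (edgeR adjusted p = 0.000713). ERD10 had 105, 84.7 and 92.9 CPM in wild type and 114, 85.1 and 83.3 CPM in the labelled-mutant libraries. The groups overlapped and their means were the same, 94.1 CPM (log2 fold change 0.00 ± 0.13, SE; edgeR adjusted p = 0.995). The 2 genes have 82.3% of aligned coding bases in common. ERD10 had 0.483 to 0.564 counts for each COR47 count in wild type and 0.889 to 1.07 in the labelled-mutant libraries.

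KIN1 and KIN2 encode small hydrophilic, alanine-rich proteins of the late embryogenesis abundant kind. KIN1 was at 5.62, 8.42 and 5.61 CPM in wild type and 23.7, 21.8 and 13.2 CPM in the labelled-mutant libraries. The groups were apart, although labelled-mutant library 3 stood below the other 2. The rise was 2.98-fold, or 1.58 ± 0.23 on the log2 scale (SE; edgeR adjusted p = 0.000586). KIN2 was at 241, 164 and 175 CPM in wild type and 202, 163 and 159.6 CPM in the labelled-mutant libraries, so its groups overlapped (log2 fold change -0.15 ± 0.15, SE; edgeR adjusted p = 0.445). KIN2 was the more abundant member in every library. KIN1 had 0.0233 to 0.0513 counts for each KIN2 count in wild type and 0.0826 to 0.134 in the labelled-mutant libraries. Counts that KIN1 may owe to KIN2 reads were not measured; the KIN2 mean was 193 ± 41.4 CPM in wild type and 175 ± 23.5 CPM where KIN1 was higher (SD, n = 3 each).

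COR78 encodes a hydrophilic protein and is a standard reporter of cold and drought responses. It had 69.8, 54.0 and 47.9 CPM in wild type and 157, 106 and 106 CPM in the labelled-mutant libraries, with every labelled-mutant value above every wild-type value. The rise was 2.15-fold (log2 fold change 1.10 ± 0.18, SE; edgeR adjusted p = 0.00101).

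**Figure D2:**
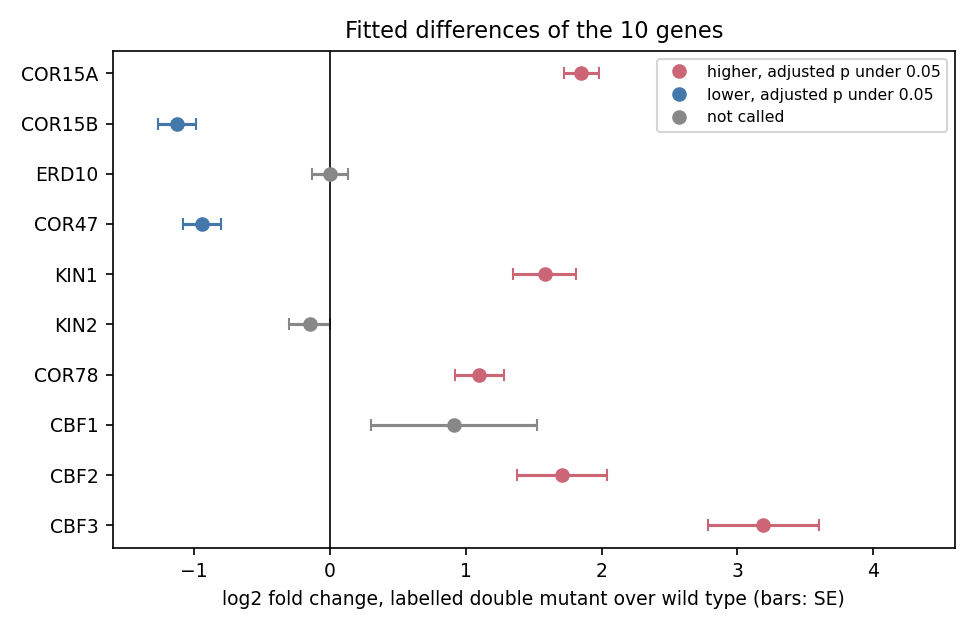
Log2 fold change of the 10 genes, labelled double mutant over wild type, from the edgeR fit across all tested genes; bars are the standard error and colours mark an adjusted p under 0.05. COR15A (1.85) and COR15B (-1.13) sit on opposite sides of 0, and CBF3 (3.19) is farthest to the right.

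The CBF factors were scarce in all libraries. CBF3, also called DREB1A, had 20, 22 and 10 counts in wild type and 267, 119 and 226 counts in the labelled-mutant libraries. In CPM this was 0.413, 0.331 and 0.146 against 3.27, 1.47 and 3.19, without overlap. The 9.14-fold rise, or 3.19 ± 0.41 on the log2 scale (SE; edgeR adjusted p = 0.000269), was the largest of the 10. It rests on few wild-type counts, which limits its precision.

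CBF2 had 31, 19 and 16 counts in wild type and 117, 82 and 84 in the labelled-mutant libraries, or 0.640, 0.286 and 0.234 CPM against 1.43, 1.01 and 1.19 CPM. The groups did not overlap, and the rise was 3.27-fold, or 1.71 ± 0.33 on the log2 scale (SE; edgeR adjusted p = 0.00267). CBF1 had 43, 16 and 7 counts in wild type and 84, 39 and 44 in the labelled-mutant libraries. Wild-type library 1, at 0.888 CPM, lay above labelled-mutant libraries 2 and 3, at 0.482 and 0.621 CPM. Its fitted difference, 0.91 ± 0.61 on the log2 scale (SE; edgeR adjusted p = 0.243), did not pass. Without wild-type library 1 it was 2.05 and passed (edgeR adjusted p = 0.00744; adjusted p in all fits tried 0.00744 to 0.574), so the outcome for CBF1 turns on 1 library. The low-count filter uses a level of 0.14 CPM, compared here with counts scaled to the library total without TMM factors. On that scale CBF1 and CBF3 exceeded the level in 2 of 3 wild-type libraries, and CBF2 in all 3. Every labelled-mutant library exceeded it for the 3 genes. CBF3 in wild-type library 3, with 10 counts, was under the level on that scale, although it had 0.146 CPM with TMM factors. The scale without TMM factors also holds wherever this level is named below.

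Levels per kilobase of counted exon allow the genes to be ordered. In wild type KIN2 came first at 258 ± 55.2 CPM per kilobase (SD, n = 3), followed by COR47 (77.7), COR15B (70.0), ERD10 (57.9) and COR15A (49.3), of which each overlapped the next in range. COR78 (21.5) and KIN1 (7.90) came below them without overlap, and CBF2, CBF1 and CBF3 (0.392, 0.337 and 0.213) could not be separated from one another. In the labelled-mutant libraries KIN2 was again first, at 233 ± 31.3, and COR15A second, at 177 ± 22.5 CPM per kilobase. ERD10 (57.9), COR78 (46.2), COR47 (40.6), COR15B (32.0) and KIN1 (23.6) each overlapped their neighbour in the order. CBF3 (1.90) and CBF2 (1.23) overlapped, and CBF1 (0.584) lay below both.

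Within groups, the 10 genes tended to peak in the same library. Labelled-mutant library 1 was the highest of its group for 10 of 10 genes, as it was for 36.3% of all tested genes. Wild-type library 1 was the highest of its group for 9 of 10, KIN1 being the exception, against 37.1% of all tested genes. The labels do not say what distinguishes these libraries. Without labelled-mutant library 1 the 7 calls remained, and COR15A and CBF3 had log2 fold changes of 1.73 and 2.99.

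Ratios between related genes within a library depend little on its scaling, and 7 of them were compared. The log2 ratio of COR15A to COR15B, with 0.5 CPM added to each, went from -0.49 ± 0.13 in wild type to 2.46 ± 0.09 (SD, n = 3 each). The difference of 2.95 was the largest of the 7 (exact two-sided permutation p = 0.1, adjusted p = 0.117), and 0.1 is the smallest p that 3 against 3 libraries allow. The ratio of ERD10 to COR47 went from -0.92 ± 0.11 to -0.01 ± 0.14, and that of KIN1 to KIN2 from -4.78 ± 0.55 to -3.16 ± 0.35 (exact permutation p = 0.1, adjusted p = 0.117 for each). Among the factors, the ratio of CBF1 to CBF3 went from 0.11 ± 0.43 to -1.34 ± 0.36, that of CBF2 to CBF3 from 0.14 ± 0.20 to -0.82 ± 0.39, and that of CBF1 to CBF2 from -0.03 ± 0.29 to -0.52 ± 0.16. Each of these 3 was apart between the groups, at the same p. With 0.1 CPM added the groups overlapped for CBF1 to CBF2 (exact permutation p = 0.2). The 0.5 CPM added was above most wild-type CBF levels, which draws these 3 log2 ratios toward 0. For COR78 over RD29B, its relative on chromosome 5, the ratio was 5.58 ± 0.68 and 4.31 ± 0.82 and the groups overlapped (exact permutation p = 0.2, adjusted p = 0.2).

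**Figure D3:**
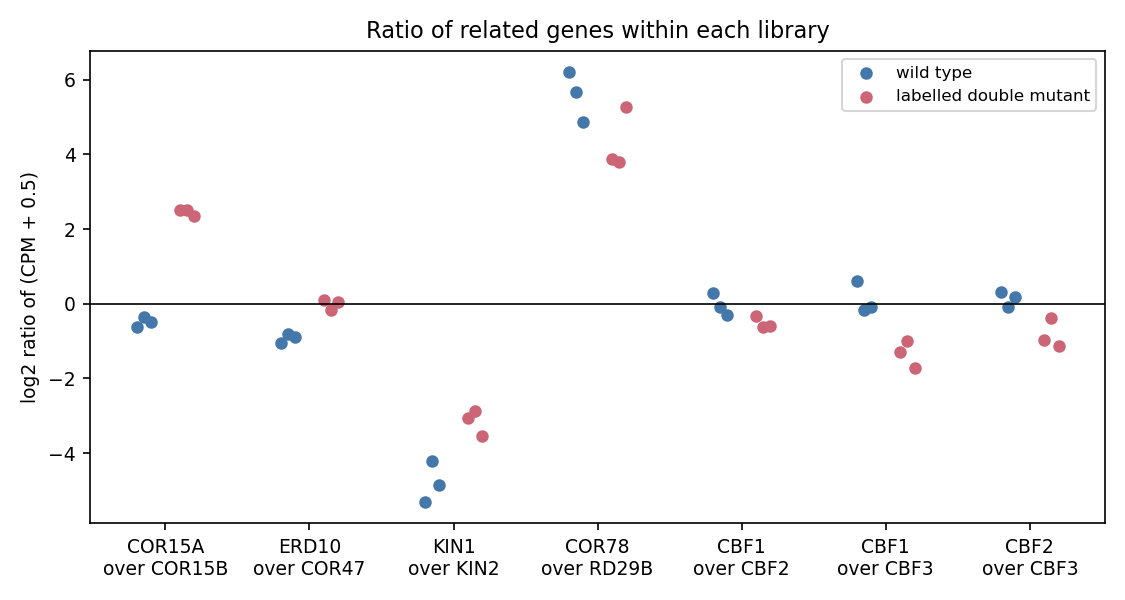
Log2 ratio of (CPM + 0.5) between related genes, 1 point per library. The ratio of COR15A to COR15B moves from below 0 in all wild-type libraries (-0.63 to -0.36) to above 2 in all labelled-mutant libraries (2.36 to 2.51); COR78 over RD29B is the ratio whose groups overlap.

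Of 21 factors known to act on CBF transcription, 6 were higher and 6 lower, and the median log2 fold change was 0.04. These counts are near the shares over all tested genes, 26.3% higher and 26.0% lower, and are no result about the list. PIF4 and PIF3, light-regulated bHLH factors that repress CBF genes, had log2 fold changes of 0.96 ± 0.08 and 0.71 ± 0.08, and PHYB, the red-light receptor that destabilises PIF proteins, had 0.55 ± 0.06. SOC1, a MADS-box flowering factor that represses CBF genes, was lower by -1.23 ± 0.11 (SE; edgeR adjusted p of 0.000147 or less for the 4 genes). ICE1, the bHLH activator of CBF3, was not called, with a log2 fold change of 0.10.

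Of 12 clock genes tested, 7 were higher, 1 was lower and 4 were not called, and the median log2 fold change was 0.74. The number higher was 6 to 7 in the alternative fits. This list and the other pathway lists were chosen with earlier results of these data known, so their shares are descriptions. Over all tested genes, 26.3% were higher and 26.0% lower. Among the 7, LHY overlapped between the groups and exceeded the level of the low-count filter in 1 of 3 wild-type libraries. CCA1, a morning factor that activates CBF genes, rose from 0.258 ± 0.0849 CPM to 2.15 ± 0.536 CPM (SD, n = 3 each), by 3.01 ± 0.29 on the log2 scale (SE; edgeR adjusted p = 5e-05). PRR9 and PRR7, which repress CCA1 and CBF genes, had 2.97 ± 0.24 and 0.94 ± 0.07; PRR9 shares up to 333 bases with AT2G46670, and the counting does not keep them apart. GI, a protein of the evening loop, had 0.79 ± 0.10. TOC1, an evening factor, was the gene that fell, by 0.24 ± 0.06 (SE; edgeR adjusted p = 0.012), a call lost without labelled-mutant library 3 (edgeR adjusted p = 0.0628; adjusted p in all fits tried 0.00149 to 0.0628). The fit with a replicate block called 2 clock genes lower. The part of the clock genes in the CBF result was not tested.

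**Figure D4:**
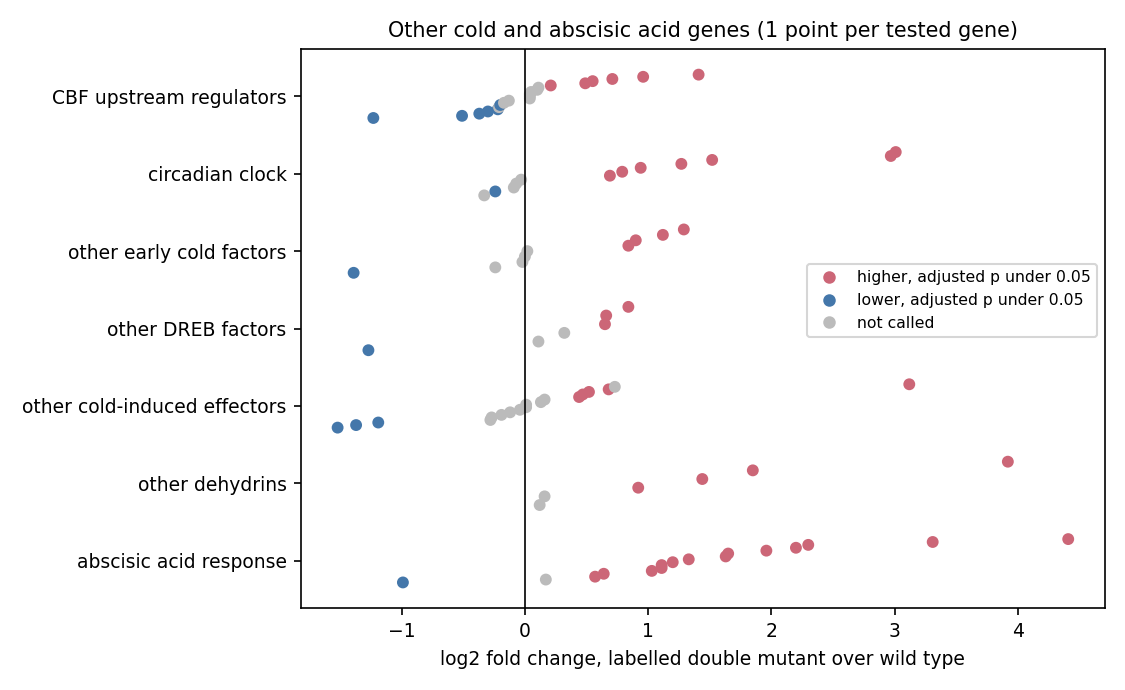
Log2 fold change of every tested gene in 7 lists of cold and abscisic acid genes, labelled double mutant over wild type; colours mark an adjusted p under 0.05. The abscisic acid list lies mainly to the right of 0 (14 higher, 1 lower), while the CBF upstream regulators fall on both sides (6 higher, 6 lower). All lists were chosen with earlier results of these data known. Over all tested genes, 26.3% were higher and 26.0% lower.

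Other early factors of the cold response, which rise in parallel with the CBF genes, gave 4 higher and 1 lower of 9, where 26.3% of all tested genes were higher and 26.0% lower. ZAT6, ERF5, CZF1 and ZAT10, zinc-finger and ethylene-response factors also induced by wounding and other stress, had log2 fold changes of 1.29, 1.12, 0.90 and 0.84. ZAT6 overlapped between the groups, with 4.48 CPM in wild-type library 1 and 4.47 CPM in labelled-mutant library 2 (edgeR adjusted p = 0.0123). RAV1, a factor with AP2 and B3 domains, was lower, at -1.39 ± 0.17 (SE; edgeR adjusted p = 0.000193). The ZAT10 call was lost with the DESeq2 Wald test (adjusted p = 0.0876) and without wild-type library 2 or labelled-mutant library 1 or 3 (adjusted p in all fits tried 0.0104 to 0.0937). Of 9 other DREB factors, relatives of the CBF proteins, 6 were tested. They gave 3 higher and 1 lower, beside the same 26.3% and 26.0% of all tested genes. DREB2B (0.84), DREB2C (0.65) and RAP2.1 (0.66) were higher and TINY (-1.27) was lower; with the DESeq2 Wald test or with no filter on low counts 2 were lower. DREB2C shares up to 76 bases with AT2G40350. The RAP2.1 call was lost without any 1 of 4 libraries, wild-type 2 or 3 and labelled-mutant 1 or 3 (adjusted p in all fits tried 0.00634 to 0.105).

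Of 18 other genes induced by cold that were tested, 5 were higher and 3 lower, and the median log2 fold change was 0.01. The share higher is near the 26.3% of all tested genes, and the share lower is not above their 26.0%. RD29B, a relative of COR78 that responds mainly to abscisic acid, had the largest rise, from 0.454, 0.572 and 1.17 CPM to 10.2, 7.17 and 2.29 CPM (log2 fold change 3.12 ± 0.56, SE; edgeR adjusted p = 0.00166). The other increases were smaller: COR413IM1, a chloroplast inner envelope protein gene that shares 59 bases with COR413IM2, had 0.68, ERD7 0.52, AT4G33980 0.47 and LEA14 0.44. RCI2A and RCI2B, small hydrophobic membrane proteins induced by cold and salt, were lower by -1.19 ± 0.11 and -1.52 ± 0.22. FAD8, a plastid fatty acid desaturase gene that shares up to 87 bases with FAD7, was lower by -1.37 ± 0.09 (SE; edgeR adjusted p of 0.000438 or less for the 3 genes).

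Among 8 further dehydrin genes, 6 were tested. Of these, 4 were higher and the other 2 were not called, where 26.3% of all tested genes were higher. The number higher was 3 to 5 in the alternative fits, and this list too was chosen with earlier results known. RAB18, the dehydrin known for its response to abscisic acid, went from 2.25, 2.59 and 5.55 CPM to 69.7, 66.6 and 23.5 CPM, or by 3.92 ± 0.47 on the log2 scale (SE; edgeR adjusted p = 0.000179). As with KIN1 and RD29B, labelled-mutant library 3 was the lowest of its group. LTI30 (0.92), AT4G38410 (1.44) and XERO1 (1.85) were higher as well. The level of the low-count filter was exceeded for XERO1 in 0 of 3 wild-type and 3 of 3 labelled-mutant libraries. That gene was thus tested only through the group where it was higher. XERO1 was at 0.239 CPM or less on average, and its call was lost without wild-type library 2 or 3 (adjusted p 0.0107 to 0.0751 in the fits that kept it). It failed the low-count filter, and so was not tested, with nuclear genes only and without labelled-mutant library 1. ERD14 and HIRD11, abundant dehydrins, had 0.12 and 0.16 and were not called.

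Genes of the abscisic acid response were higher in 14 of 16 cases, with a median log2 fold change of 1.26. The list was chosen with earlier results of these data known, so its share describes the list and is not a test of it. Over all tested genes, 26.3% were higher and 26.0% lower, with a median of 0.01. EM6, 1 of the 14, overlapped between the groups (edgeR adjusted p = 0.0473). It exceeded the level of the low-count filter in 0 of 3 wild-type libraries, so it was tested only through the labelled-mutant group. HAI3, also among the 14, exceeded that level in 1 of 3 wild-type libraries. HAI2, a protein phosphatase gene induced by the hormone, went from 0.505 ± 0.139 to 10.5 ± 2.53 CPM (SD, n = 3 each; log2 fold change 4.41 ± 0.24, SE). ABI5, a bZIP factor that binds ABRE, had 2.30 ± 0.18, RD22, a dehydration-responsive gene, had 2.20 ± 0.09, and P5CS1, a proline synthesis gene that shares up to 53 bases with P5CS2, had 1.65 ± 0.11 (edgeR adjusted p of 1.66e-05 or less for the 4 genes). RD26, a NAC factor induced by drought and abscisic acid, was the gene that fell, by 0.99 ± 0.17 (SE; edgeR adjusted p = 0.00115). NCED3, which makes the precursor of the hormone in drought, was not called, with 0.17. Hormone levels were not measured, and the part of these genes in the COR result was not tested.

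The genes whose profile over the 6 libraries was closest to COR15A and COR15B were found by Euclidean distance between log2 (CPM + 0.5) values centred on each gene's mean, among genes averaging 5 CPM or more. Nearest to COR15A were AT4G04750 (distance 0.210), the protein kinase gene CIPK25 (0.270), the carboxypeptidase-like gene scpl10 (0.272), TT4, the chalcone synthase of flavonoid synthesis (0.275), and the ion channel gene CNGC11 (0.290). Nearest to COR15B were the aquaporin genes PIP2A (0.195) and PIP1A (0.225), PSAN (0.249), a photosystem I subunit, AT5G26280 (0.256) and LQY1 (0.260). AT4G04750, scpl10, CNGC11 and AT5G26280 share stretches of at least 50 bases with other genes. These distances describe 6 libraries in 2 groups and carry no test.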

How the data were processed

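Each library's deposited table gives unnormalised counts of reads over genes. The submitters' processing notes name STAR and the build TAIR10; per the file headers, featureCounts 2.0.0 counted the reverse strand over exons, with multi-mapped reads included at full weight. A total therefore counts alignments. The STAR version was not found in those notes. All 32548 nuclear identifiers matched TAIR10.1 locus tags, 99.95% with equal coordinates, and 99.19% of 50443 introns placed from the tables had splice dinucleotides in that genome, from which sequences were read (RefSeq).

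The test was run in edgeR 4.0.16 under R 4.3.3 (filterByExpr, TMM, quasi-likelihood test, group as the only term, Benjamini-Hochberg adjustment over 21805 genes); a standard error is the log2 fold change over the square root of F. The fit was also run on simulated data in which far fewer genes differed than were called here. That run therefore cannot test the scaling or the adjusted p-values for data with so many called genes. Alternatives were DESeq2 1.42.0, its size factors, no filter, nuclear genes only, a replicate block and leaving out each library. Named genes are the 10 genes, both targeted genes, up to 4 called genes per list by adjusted p, and all called genes of a direction with 5 or fewer. ICE1, LHY, ERD14, HIRD11, NCED3, EM6 and HAI3 were named after their values were seen. Members and lists were chosen with earlier results of these data known. The design text speaks of 2 biological replicates while titles number 3 libraries per genotype; all 6 were used. Within a group, libraries differed by more than sampling noise (chi-square per degree of freedom 11.2 to 39.7). Nothing says that they came from separate cultures, so p-values measure the spread between libraries, which may be technical.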

Additional observations from a re-analysis of the deposited data

How the results depend on the processing

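The 7 called genes kept direction and call in all 11 alternatives each, and the number called was 5 higher and 2 lower in every one except without wild-type library 1, where 6 were higher (range without 1 library 5 to 6). That alternative brought in CBF1, at 2.05; its range without 1 library was 0.40 to 2.05. Values near 0 changed sign without being called. ERD10 had -0.01 with DESeq2 size factors, the DESeq2 Wald test and the replicate block, -0.00 with nuclear genes only, and -0.17 to 0.08 without 1 library. KIN2 had 0.04 without wild-type library 1 (range -0.27 to 0.04). Genes called higher ranged from 4678 to 5785 and lower from 4833 to 5835. Of 515 values of the other named genes, 503 kept direction and side of the threshold, 11 lost and 1 gained a call, namely AT4G15640 without wild-type library 2 (0.24; adjusted p = 0.0338). The replicate block gave 5682 higher and 5691 lower genes and changed no call among the 10. Same-numbered libraries had deviation correlations of 0.231, 0.054 and 0.007 for libraries 1, 2 and 3. The value for libraries 1 was the highest between any wild-type and any labelled-mutant library. Libraries 2 and 3 correlated better across numbers, at 0.131 and 0.13, so the numbers were not taken to pair all libraries. Whether libraries 1 belong together was not tested. With the block, the SE was smaller for each of the 10 genes, for example 0.07 beside 0.18 for COR78. All 7 ratios kept their direction. With pseudocounts of 0.1 and 2 CPM, the difference for COR78 to RD29B ranged from -1.76 to -0.46, and that for CBF1 to CBF3 from -1.84 to -0.81. Over all alternatives, that for CBF2 to CBF3 ranged from -1.27 to -0.56 and that for CBF1 to CBF2 from -0.62 to -0.25. Depth limits the CBF factors, at 7 to 43 wild-type counts per library.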
